A study of Mus musculus with 16 samples.

Results

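The 3 Gadd45 genes and 7 genes of the p53 network were followed in mouse 2-cell embryos after injection of double-stranded RNA against Suv39h2. The 10 genes (Gadd45a, Gadd45b, Gadd45g, Trp53, Mdm2, Cdkn1a, Ccng1, Bax, Bbc3 and Trp53inp1) were matched by symbol to the 49585 gene identifiers of the deposited gene tables, with 1 identifier for each, and the set was named with earlier results of these data known. The 16 libraries were made from polyadenylated RNA by the Smart-seq2 method, which reads whole transcripts and loses their strand. There were 4 libraries of non-injected embryos, 6 of embryos injected with dsLacz, against a bacterial gene absent from the mouse (LacZ control), and 6 of embryos injected with dsSuv39h2 (knockdown). All 3 groups came from DBA fathers and from mothers that were C57BL/6J × CBA/H F1 hybrids, and were kept in KSOM medium, injected groups having been microinjected as zygotes. The design text gives pools of 5 embryos per library, whereas the extraction protocol speaks of single embryos, and the treatment protocol names Suv39h1 mRNA, which no other label of these groups mentions. Nothing in the labels says whether the libraries came from separate litters, so the p-values measure only the spread between these libraries. In bulk RNA of whole embryos, fewer cells with a transcript and less of it per cell cannot be told apart.

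Gadd45 proteins are small acidic stress sensors that bind the kinase Map3k4 and so feed p38 and JNK signalling, bind Pcna and Cdk1, and have been tied to DNA repair and to removal of DNA methylation. The transcription factor p53, encoded by Trp53, is held low by the ubiquitin ligase Mdm2, itself a p53 target. When p53 is stabilised after DNA damage it raises Cdkn1a (p21, which inhibits cyclin-dependent kinases), Ccng1 (cyclin G1, a partner of a phosphatase that acts on Mdm2), Gadd45a, the cell death genes Bax and Bbc3 (PUMA), and Trp53inp1, a cofactor of p53 and of autophagy. Early mouse embryos are known for weak checkpoint responses before the blastocyst stage.

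The sequences around the start sites of the 3 Gadd45 genes are shown with those of Ccng1 and Cdkn1a, because Gadd45a and Ccng1 were the members with calls, Gadd45b and Gadd45g are the paralogs of the first, and Cdkn1a is the classical p53 target. They are RefSeq windows on GRCm38.p6, from 250 bases before to 50 after the start of transcription, read 5′ to 3′ on the strand of the gene. Capitals mark CCAAT, the octamer ATTTGCAT, TATAAA and the 10-base decamer bound by p53 subunits, each searched on both strands. The windows are chr6:67037358-67037657 (minus strand) for Gadd45a, chr10:80929841-80930140 (plus) for Gadd45b, chr13:51846425-51846724 (plus) for Gadd45g, chr11:40755237-40755536 (minus) for Ccng1 and chr17:29090729-29091028 (plus) for the upstream start of Cdkn1a.
Gadd45a: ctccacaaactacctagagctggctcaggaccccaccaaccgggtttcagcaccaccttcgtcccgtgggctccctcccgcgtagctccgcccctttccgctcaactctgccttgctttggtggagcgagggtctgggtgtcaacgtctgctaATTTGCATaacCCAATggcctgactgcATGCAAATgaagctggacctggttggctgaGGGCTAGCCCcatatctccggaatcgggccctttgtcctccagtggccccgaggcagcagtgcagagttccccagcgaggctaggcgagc
Gadd45b: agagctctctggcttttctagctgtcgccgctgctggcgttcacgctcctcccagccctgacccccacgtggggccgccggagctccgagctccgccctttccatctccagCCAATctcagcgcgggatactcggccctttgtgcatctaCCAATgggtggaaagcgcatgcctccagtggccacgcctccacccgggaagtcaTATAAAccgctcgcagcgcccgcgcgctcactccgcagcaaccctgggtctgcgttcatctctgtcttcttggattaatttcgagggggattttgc
Gadd45g: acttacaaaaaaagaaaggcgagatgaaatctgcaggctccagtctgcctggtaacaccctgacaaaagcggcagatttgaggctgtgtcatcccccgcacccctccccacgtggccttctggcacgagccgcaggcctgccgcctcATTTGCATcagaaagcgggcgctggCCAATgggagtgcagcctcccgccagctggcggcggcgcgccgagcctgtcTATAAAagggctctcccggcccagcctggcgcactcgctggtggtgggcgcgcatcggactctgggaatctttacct
Ccng1: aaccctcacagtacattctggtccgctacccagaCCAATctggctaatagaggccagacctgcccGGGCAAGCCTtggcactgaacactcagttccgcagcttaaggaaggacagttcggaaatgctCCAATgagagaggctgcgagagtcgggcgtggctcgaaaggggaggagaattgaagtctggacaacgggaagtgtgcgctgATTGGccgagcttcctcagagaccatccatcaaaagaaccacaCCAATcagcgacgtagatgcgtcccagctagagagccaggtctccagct
Cdkn1a: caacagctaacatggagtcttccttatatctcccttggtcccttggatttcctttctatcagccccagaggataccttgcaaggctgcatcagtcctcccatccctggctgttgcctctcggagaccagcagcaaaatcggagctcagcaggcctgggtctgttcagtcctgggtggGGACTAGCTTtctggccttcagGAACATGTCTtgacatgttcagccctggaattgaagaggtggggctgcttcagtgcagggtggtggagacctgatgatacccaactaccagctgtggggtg

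The octamer occurred in the windows of Gadd45a, on both strands at -97 and -70, and of Gadd45g, at -103, counted from the start site. It was present in 1.75% of the 32544 distinct windows of all genes. The 9 members in the table had 12 windows, 3 for Bbc3 and 2 for Cdkn1a. CCAAT was present in 7 of the 12 windows, each of another member, against 37.4% of all windows, and Ccng1 held 4 copies within its 300 bases. TATAAA was found in 3 of the 12 windows (13.6% of all windows), at -46 in Gadd45b, at -27 in Gadd45g and, on the minus strand, at -248 in Trp53. It was not among the letters of the Gadd45a window. A p53 decamer was found in 6 of the 12 windows (8.36% of all windows). It stood at -40 in Gadd45a, -185 in Ccng1, -186 in Mdm2, -75 in Trp53 and -201 in Bax, and the other was a Cdkn1a window. In the window of the upstream Cdkn1a start, decamers at -73 and -51 were separated by at most 13 bases, an arrangement found in 0.0737% of all windows. The window of the other, downstream Cdkn1a start held none of the searched motifs. All motifs named here are matches of letters in annotated windows, with no measurement of binding. Trp53inp1 was not in the table of windows.

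The gene tables hold fold changes and tests between groups and no value of a single library, so the spread and depth of the libraries are unknown, and no sample values can be given. Suv39h2 was lower by 3.87-fold in knockdown than in LacZ control embryos in the authors' deposited table (log2 fold change -1.95 ± 0.28, standard error, DESeq2 adjusted p = 4.72e-08), which checks the labels. Of 8 markers of the 2-cell stage all had a mean normalized count of at least 114, and of 7 oocyte markers all had at least 38.4. Of 10 cumulus and granulosa cell markers 6 lay under a mean count of 1, with the others up to 36.5 (Tnfaip6), and 7 sperm markers lay between 0 and 7.78. Between knockdown and LacZ control none of the 8 stage and 7 oocyte markers was called in the authors' deposited table, while 3 of the 10 cumulus and granulosa markers and 0 of the 7 sperm markers had an adjusted p, so the rest of these lists could not be called. Against non-injected embryos 3 of the 8 stage markers and 4 of the 7 oocyte markers were called higher in knockdown in the authors' deposited table, where 7.41% of all genes were. In LacZ control over non-injected 2 stage markers and 0 oocyte markers were called higher in the authors' deposited table, where 0.529% of all genes were. That share is over genes with a mean count down to 0.14, far below the counts of these markers. At an unadjusted p under 0.05, 4 stage and 3 oocyte markers were higher there, and 7.39% of all genes passed in either direction. The median log2 fold change of the oocyte markers was 0.44 there and 0.13 for knockdown over LacZ control. The part of these shifts in the values below was not tested.

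Per kilobase of exon, Mdm2 had the highest mean normalized count of the 10 genes and Bbc3 the lowest. The deposited mean over all libraries divided by exon length gave 377 counts per kilobase for Mdm2, the ubiquitin ligase of p53, which was at or above 93.4% of the 15538 tested genes with a length. Next came Cdkn1a with 250.4, Trp53inp1 with 157, Gadd45b with 142, Trp53 with 122 and Gadd45a with 113 counts per kilobase. Bax had 77.9, Gadd45g 52.6 and Ccng1 46.3 counts per kilobase, all above the median of tested genes of 29.5. Bbc3 stood alone below that median with 5.97 counts per kilobase, from a mean count of 12.7. Within the Gadd45 family the order was Gadd45b, Gadd45a and Gadd45g, with mean normalized counts of 226, 199.7 and 61.7 before division by length. Without values per library it cannot be said which neighbours in this order differ beyond their spread.

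**Figure D1:**
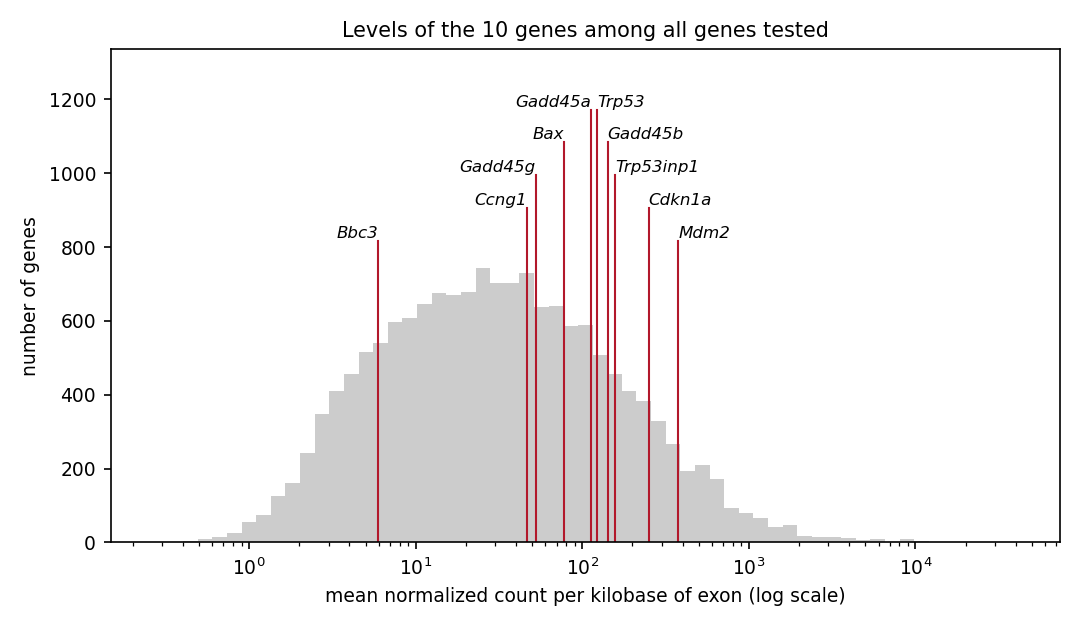
Number of genes (vertical axis) by mean normalized count per kilobase of exon (horizontal axis, log scale) for the genes with an adjusted p in knockdown over LacZ control, with the 10 genes marked by red lines of staggered height. Mdm2 at 377 and Cdkn1a at 250.4 counts per kilobase lie at the right, and Bbc3 at 5.97 lies at the left of the other members.

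Between knockdown and LacZ control embryos, both injected, Gadd45a fell to 46.7% of its control level and was the only member called. Ccng1 lay at 199% of the control level and just missed the threshold. The other 8 genes lay between 77.9% and 121% of the control level. The call rule is a DESeq2 adjusted p under 0.05. In all, 1 of the 10 members was called by this rule in the authors' deposited table, against 0.899% of all 15572 genes tested. The call was in the lower direction, in which 0.533% of all genes were called, and 0.366% were called higher. At an unadjusted p under 0.05 there were 2 members, against 14.7% of all genes.

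Gadd45a, the p53-inducible member of its family, had a log2 fold change of -1.10 ± 0.27 (standard error, adjusted p = 0.0132) in the authors' deposited table for knockdown over LacZ control. The 95% interval of its level was 32.3% to 67.6% of the control, and it ranked 30 by p among the 15572 genes. Gadd45b, known as an immediate early target of stress and cytokine signals, stood at -0.36 ± 0.25 (log2) in the authors' deposited table, with adjusted p = 0.534. Gadd45g, induced by differentiation and cytokine signals, stood at -0.33 ± 0.32 in the authors' deposited table, with adjusted p = 0.681. Both paralogs lay below the control but their 95% intervals reached from 55.3% to 110% for Gadd45b and from 51.6% to 122% for Gadd45g. Whether Gadd45a differed from its paralogs in response was not tested, because the tables do not give the covariance of 2 genes.

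Trp53 itself stood at 0.23 ± 0.23 and Mdm2 at -0.19 ± 0.15 (log2) in the authors' deposited table, with adjusted p = 0.722 and 0.592. Mdm2 had the smallest standard error of the 10 genes, and its 95% interval of 71.3% to 108% of the control did not reach down to the 46.7% of Gadd45a. Among the targets that act on the cell cycle, Ccng1 stood at 0.99 ± 0.27 in the authors' deposited table (unadjusted p = 0.000510, adjusted p = 0.0519, 95% interval 138% to 288% of the control). Of 5 other ways to adjust or form the test, 4 put the adjusted p of Ccng1 under 0.05, with a range from 0.0335 to 0.0863 over the 5. Cdkn1a stood at 0.28 ± 0.21 in the authors' deposited table, with adjusted p = 0.553, with an interval of 90.8% to 161% of the control. The value of Ccng1 was opposite in sign to that of Gadd45a, although both are known p53 targets.

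The death effectors Bax, which permeabilises mitochondria, and Bbc3, which unleashes it, were not called. Bax stood at -0.09 ± 0.27 and Bbc3 at -0.35 ± 0.40 (log2) in the authors' deposited table, with adjusted p = 0.911 and 0.732. The interval of Bbc3 ran from 45.4% to 135% of the control, so a level as low as that of Gadd45a lay inside it for this weakly expressed gene. Trp53inp1 stood at 0.09 ± 0.22 in the authors' deposited table, with adjusted p = 0.909. The median of the 10 log2 fold changes was -0.14, and that of all tested genes was 0.02.

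**Figure D2:**
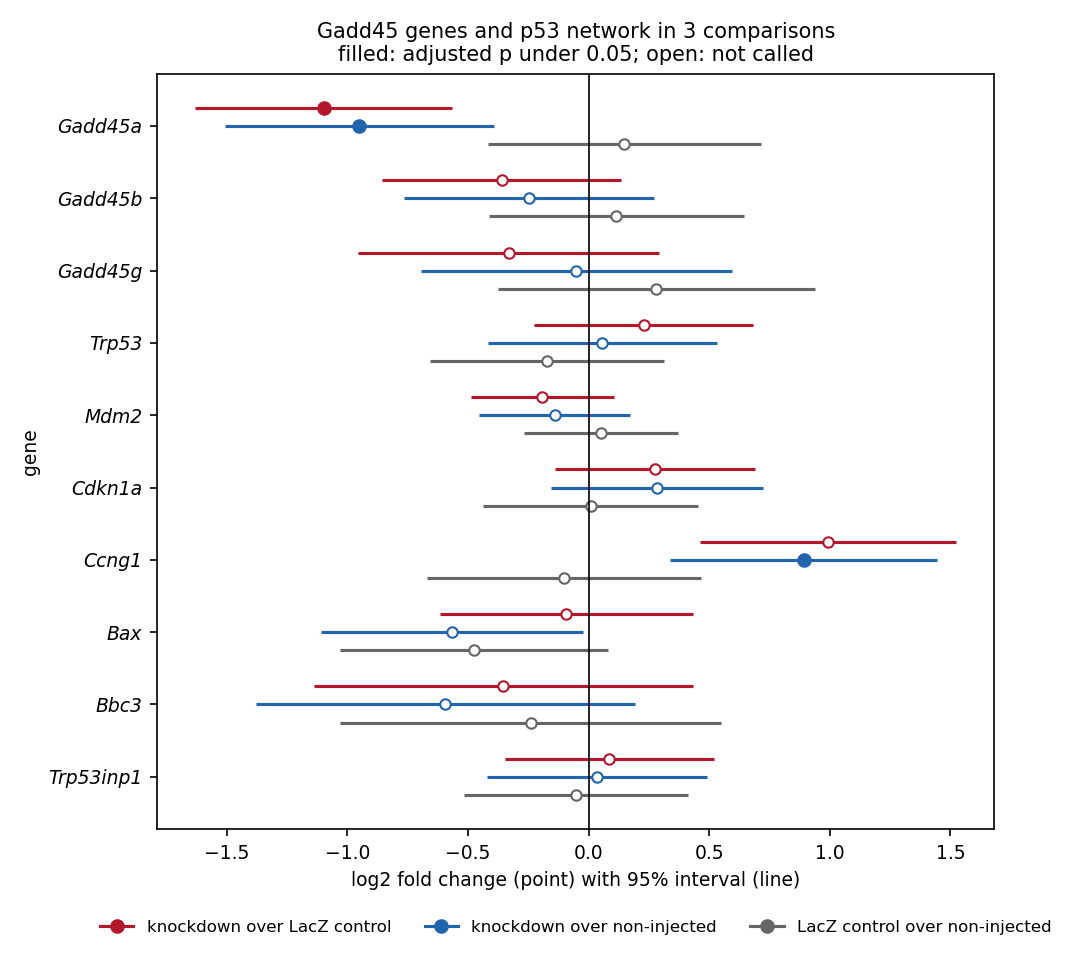
Log2 fold change (horizontal axis) of each of the 10 genes (vertical axis) in the 3 comparisons, from the deposited tables, with lines for the 95% interval from the standard error and filled points for an adjusted p under 0.05. Gadd45a is filled at -1.10 and -0.95 and Ccng1 at 0.89, and no point of LacZ control over non-injected (grey) is filled.

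**Figure D3:**
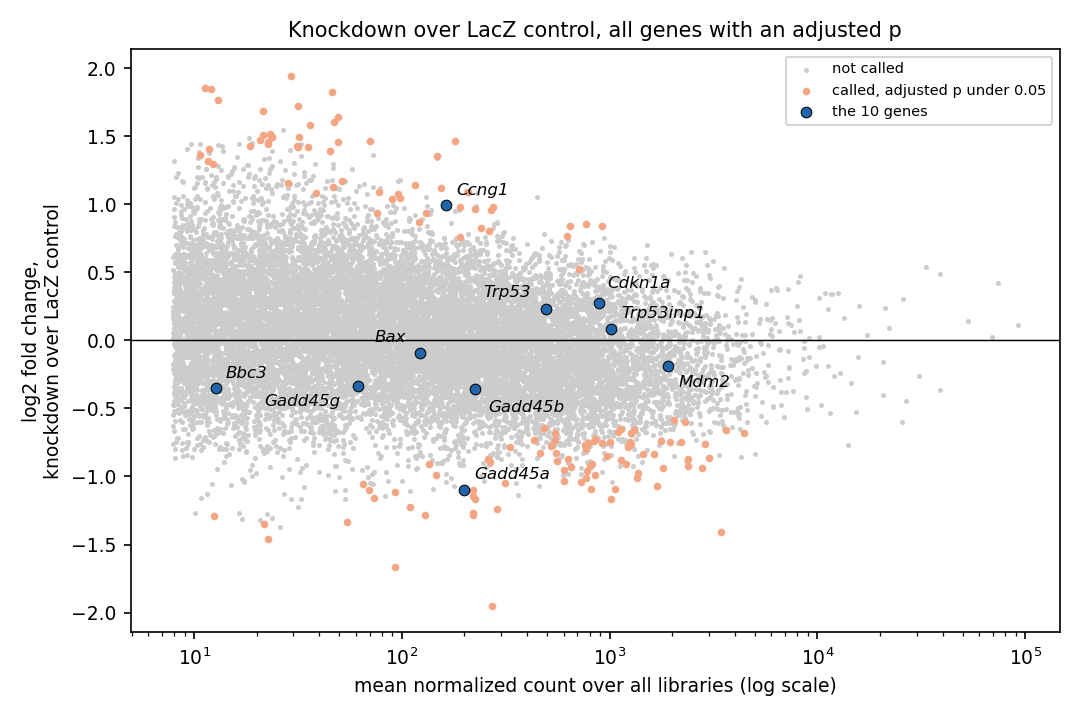
Log2 fold change of knockdown over LacZ control (vertical axis) against the mean normalized count over all libraries (horizontal axis, log scale) for the 15572 genes with an adjusted p in the deposited table. Among the 10 genes (blue), Gadd45a at -1.10 lies with the called genes (orange) and Ccng1 at 0.99 lies near the upper ones, while the others lie within the grey cloud.

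Between knockdown and non-injected embryos Gadd45a was lower and Ccng1 higher in knockdown. This comparison shares the knockdown libraries with the one above, and its values are set beside those for that reason and not as a second test. Gadd45a stood at 51.8% and Ccng1 at 186% of the non-injected level. In the authors' deposited table Gadd45a had a log2 fold change of -0.95 ± 0.28 (adjusted p = 0.00890), and Ccng1 one of 0.89 ± 0.28 (adjusted p = 0.0284). In all, 2 of the 10 members were called in the authors' deposited table, where 15.2% of the 14948 tested genes were called, so the share of members called is near that of all genes. By direction 7.41% of all genes were called higher and 7.76% lower. At an unadjusted p under 0.05 there were 3 members, against 29% of all genes. The third was Bax at -0.57 ± 0.28 in the authors' deposited table (unadjusted p = 0.0404, adjusted p = 0.148), or 67.6% of the non-injected level.

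The other members were not called against non-injected embryos. Gadd45b stood at -0.25 ± 0.26 and Gadd45g at -0.05 ± 0.33 (log2) in the authors' deposited table, with adjusted p = 0.592 and 0.964. Trp53 stood at 0.06 ± 0.24, Mdm2 at -0.14 ± 0.16 and Cdkn1a at 0.28 ± 0.22 in the authors' deposited table, with adjusted p = 0.945, 0.604 and 0.398. Bbc3 had the lowest value of those not called, -0.59 ± 0.40 in the authors' deposited table, with adjusted p = 0.355. Trp53inp1 stood at 0.04 ± 0.23 in the authors' deposited table, with adjusted p = 0.953, and its sign turned once the median of all genes, 0.05, was subtracted (-0.016). The call of Ccng1 ended when p-values were adjusted over every gene with a p-value (adjusted p = 0.0575, range 0.0175 to 0.0575 over 5 alternatives).

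Between the LacZ control and non-injected embryos, which differ by injection of an RNA with no mouse target, none of the 10 genes was called. Each of these groups also serves in 1 of the comparisons above. In the authors' deposited table for LacZ control over non-injected 0 of the 10 members were called by DESeq2, 0 had an unadjusted p under 0.05, and 0.792% of the 29288 tested genes were called (7.39% at an unadjusted p under 0.05). Genes down to a mean count of 0.14 were tested here, against 7.93 for knockdown over LacZ control and 9.66 over non-injected. The shares of all genes here thus rest on a wider set with more weakly expressed genes. Gadd45a stood at 0.15 ± 0.29 and Ccng1 at -0.10 ± 0.29 (log2) in the authors' deposited table, with adjusted p = 0.998 for each. Gadd45b stood at 0.12 ± 0.27 and Gadd45g at 0.28 ± 0.34 in the authors' deposited table. Trp53 stood at -0.17 ± 0.25, Mdm2 at 0.05 ± 0.16, Cdkn1a at 0.01 ± 0.23 and Trp53inp1 at -0.05 ± 0.24 in the authors' deposited table. The value farthest from 0 was that of Bax, -0.47 ± 0.28 in the authors' deposited table (unadjusted p = 0.0915, adjusted p = 0.803), and Bbc3 stood at -0.24 ± 0.40. These intervals are wide: for Gadd45a the LacZ control lay between 74.9% and 164% of the non-injected level.

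Placed side by side, the groups fell into different orders for the 2 genes with calls. For Gadd45a the order from high to low was LacZ control (111% of non-injected), non-injected and knockdown (51.8%), with the first 2 not separated by the test and the third called against each of them. For Ccng1 the order was knockdown (186%), non-injected and LacZ control (93.2%), with knockdown called against non-injected only. The smaller unadjusted p of Ccng1 by DESeq2 was nevertheless that against LacZ control (0.000510, and 0.00325 against non-injected). For Bax both injected groups lay below non-injected, at 72.0% in LacZ control and 67.6% in knockdown, with no neighbours separated. For Mdm2 the 3 groups lay within 90.7% to 104% of non-injected, and no pair of groups was separated.

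Gadd45a (ENSMUSG00000036390.8) is annotated as protein-coding on the minus strand of chromosome 6 of GRCm38, from 67035096 to 67037457. Of its 1764 exon bases 337 are shared with E230016M11Rik on the opposite strand, and reads there cannot be assigned without strand. That neighbour had a mean normalized count of 70.0 and a log2 fold change of -0.62 ± 0.28 for knockdown over LacZ control in the authors' deposited table, with adjusted p = 0.243. The part of the overlap in the value of Gadd45a was not tested. Ccng1 (ENSMUSG00000020326.7) lies on the minus strand of chromosome 11, from 40748552 to 40755311, and its exons overlap those of no other annotated gene. Gadd45b lies on chromosome 10 (80930073 to 80932204, plus) and Gadd45g on chromosome 13 (51846678 to 51848468, plus). Trp53 lies on chromosome 11 (69580359 to 69591873, plus), Mdm2 on chromosome 10 (117688875 to 117710758, minus) and Cdkn1a on chromosome 17 (29090976 to 29100727, plus). Bax (45461697 to 45466898, minus) and Bbc3 (16308393 to 16318205, plus) lie on chromosome 7, and Trp53inp1 lies on chromosome 4 (11156431 to 11174379, plus). All are annotated as protein-coding in GENCODE M21. Cdkn1a shares 273 exon bases with AC167363.2 on the opposite strand and Bax 192 with Gm45808 on its own strand, a gene with a mean count of 0.484.

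The genes whose pattern was most like that of Gadd45a were sought among 3622 genes of 0.5 to 2 times its mean count. Likeness was the Euclidean distance over 2 log2 fold changes, knockdown over LacZ control and LacZ control over non-injected, so it rests on 3 group means. The nearest were Snapc5, a subunit of the complex that starts small nuclear RNA transcription (distance 0.057), Naxe, an epimerase that repairs hydrated NADH (0.068), and Slc30a1, a zinc exporter (0.097). Uhrf2, a ubiquitin ligase that reads DNA methylation, and Casc3, a core factor of the exon junction complex, followed at 0.19 and 0.20. For knockdown over LacZ control Naxe stood at -1.17 ± 0.28, Slc30a1 at -1.10 ± 0.27 and Casc3 at -0.91 ± 0.25 in the authors' deposited table, with adjusted p = 0.0207, 0.0132 and 0.0343. Snapc5 at -1.05 ± 0.31 and Uhrf2 at -0.92 ± 0.32 were not called in the authors' deposited table, with adjusted p = 0.0613 and 0.122. Fold changes near that of Gadd45a follow from the way these genes were chosen.

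Other genes of the same pathways were read in 8 lists that hold none of the 10 members. Their counts stand against the shares of all genes called, which were 0.899% between both injected groups, 15.2% when knockdown was set against non-injected embryos and 0.792% when the LacZ control was. The last share is over the wider set of genes described above. Upstream of p53, 26 genes were matched, among them its relatives, the damage kinases and the regulators of Mdm2. Between knockdown and LacZ control 0 of the 25 with an adjusted p were called by DESeq2 in the authors' deposited table, with 2 higher and 5 lower at an unadjusted p under 0.05 and a median log2 fold change of -0.12. The values nearest to a call were those of Trp73, the p53 relative, at 1.05 ± 0.30 (adjusted p = 0.0520), and of Chek2, a damage kinase that phosphorylates p53, at -0.67 ± 0.19 (adjusted p = 0.0537), in the authors' deposited table. Mdm4, the partner of Mdm2, had the highest mean count of the list, 20752, and stood at -0.40 ± 0.22 in the authors' deposited table, with adjusted p = 0.391. Against non-injected embryos Trp73 was higher and Chek2, Prkdc and Rpl11 were lower in the authors' deposited table, 4 of 25 genes, a share near the 15.2% of all genes. Chek2 stood at -1.25 ± 0.20 (adjusted p = 2.21e-06), and Prkdc, the kinase of end joining, at -0.96 ± 0.22 (adjusted p = 0.000668), in the authors' deposited table. Rpl11, a ribosomal protein that binds Mdm2, stood at -0.67 ± 0.20 and Trp73 at 0.85 ± 0.32 in the authors' deposited table, with adjusted p = 0.0121 and 0.0480. Prkdc was also called lower when LacZ control was set against non-injected, -0.79 ± 0.22 in the authors' deposited table, with adjusted p = 0.0452, the 1 call among 26 genes there. For LacZ control over non-injected Chek2 stood at -0.58 ± 0.20 and was not called by DESeq2 (unadjusted p = 0.00336, adjusted p = 0.212). Trp73 shares 280 of 5534 exon bases with Trp73os on the opposite strand.

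Of 55 further p53 targets, 47 had an adjusted p between knockdown and LacZ control, and 0 were called by DESeq2 in the authors' deposited table. Of these, 2 were higher and 3 lower at an unadjusted p under 0.05, and their median log2 fold change was 0.02, equal to that of all tested genes at this precision. Against non-injected embryos 4 of 46 were called, 1 higher and 3 lower, in the authors' deposited table, with a median of -0.02 against 0.05 for all genes. This count was below the 15.2% of all genes called there. Btg2, an antiproliferative gene, was the higher one at 0.98 ± 0.29 (adjusted p = 0.0167), and Ppm1d, the phosphatase that turns p53 signalling off, stood at -1.20 ± 0.32 (adjusted p = 0.00415), in the authors' deposited table. Ei24, a membrane protein of autophagy, stood at -0.98 ± 0.30 and Sco2, an assembly factor of cytochrome c oxidase, at -1.07 ± 0.30 in the authors' deposited table, with adjusted p = 0.0137 and 0.00645. Most exon bases of Sco2 are shared with Tymp on its own strand or with Ncaph2 on the other, so its value is uncertain. Ei24 shares 324 of 4868 exon bases with Gm26787. It stood at -0.27 ± 0.28 for knockdown over LacZ control and at -0.70 ± 0.30 for LacZ control over non-injected, with neither called. For knockdown over LacZ control the values nearest to a call were Sco2 at -0.96 ± 0.28 and Btg2 at 0.96 ± 0.28. Neither was called by DESeq2 in the authors' deposited table, with adjusted p = 0.0583 and 0.0629. For LacZ control over non-injected Sco2 stood at -0.10 ± 0.30 and Btg2 at 0.02 ± 0.30 in the authors' deposited table. In LacZ control over non-injected 0 of 53 were called by DESeq2 in the authors' deposited table, with 2 higher and 4 lower at an unadjusted p under 0.05. By group the median for knockdown over LacZ control was -0.11 in growth arrest genes, 0.21 in cell death genes and 0.00 in repair and metabolism genes. Against non-injected embryos, a comparison with the same knockdown libraries, these medians were 0.09, -0.11 and -0.07, so the first 2 were of the opposite sign.

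The BCL2 family, which contains the partners of Bax and Bbc3, had 11 genes with an adjusted p and 1 call between knockdown and LacZ control in the authors' deposited table. Mcl1, a survival protein that holds the death effectors in check, fell by 0.83 ± 0.22 (log2) in the authors' deposited table, with adjusted p = 0.0350. Against non-injected embryos Mcl1 stood at -0.62 ± 0.23 in the authors' deposited table, with adjusted p = 0.0579. There the 1 call among 11 genes of the family, against 15.2% of all genes, was Bcl2l10, an oocyte survival protein with a mean count of 7195, at 0.82 ± 0.25 in the authors' deposited table, with adjusted p = 0.0151. Bcl2l10 stood at 0.38 ± 0.24 for knockdown over LacZ control and at 0.44 ± 0.26 for LacZ control over non-injected, with neither called. Bak1, a pore-forming effector like Bax, had a mean count of 0.673, and 2 family members were listed at 0. In LacZ control over non-injected 0 of 14 family members were called by DESeq2 in the authors' deposited table, with 1 higher and 0 lower at an unadjusted p under 0.05.

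Among partners of the Gadd45 proteins and genes of p38 and JNK signalling, 1 of 23 was called between knockdown and LacZ control in the authors' deposited table. This was Cdk1, the mitotic kinase that Gadd45 proteins bind, at -0.76 ± 0.21 in the authors' deposited table, with adjusted p = 0.0410. Map3k4, the kinase activated by Gadd45 proteins, stood at 0.22 ± 0.21 and Mapk14, the main p38 kinase, at -0.40 ± 0.22 in the authors' deposited table, with adjusted p = 0.670 and 0.403. Map2k7, a kinase of the JNK branch, stood at -1.23 ± 0.36 in the authors' deposited table, with adjusted p = 0.0503. Against non-injected embryos 3 of 22 were called, near the 15.2% of all genes: Map2k7 at -1.39 ± 0.37, Cdk1 at -0.74 ± 0.22 and Map3k5, a stress kinase, at 0.59 ± 0.21 in the authors' deposited table, with adjusted p = 0.00402, 0.0110 and 0.0391. Map2k7 shares 1349 of 3829 exon bases with Gm49320 on its own strand. Map3k5 stood at 0.34 ± 0.20 for knockdown over LacZ control and at 0.25 ± 0.21 for LacZ control over non-injected, with neither called. In LacZ control over non-injected 0 of 24 were called by DESeq2 in the authors' deposited table, with 1 higher and 0 lower at an unadjusted p under 0.05. Of the transcription factors known to act on Gadd45 genes, 0 of 23 were called between knockdown and LacZ control by DESeq2 in the authors' deposited table, with 1 higher and 1 lower at an unadjusted p under 0.05. Against non-injected embryos 1 of 23 was called, below the 15.2% of all genes, namely Myc, which represses Gadd45a in other cells, at -1.16 ± 0.36 in the authors' deposited table, with adjusted p = 0.0241. Myc stood at -0.67 ± 0.35 for knockdown over LacZ control and at -0.48 ± 0.37 for LacZ control over non-injected, with neither called. In LacZ control over non-injected 0 of 26 of these factors were called by DESeq2 in the authors' deposited table, with 4 higher and 1 lower at an unadjusted p under 0.05.

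**Figure D4:**
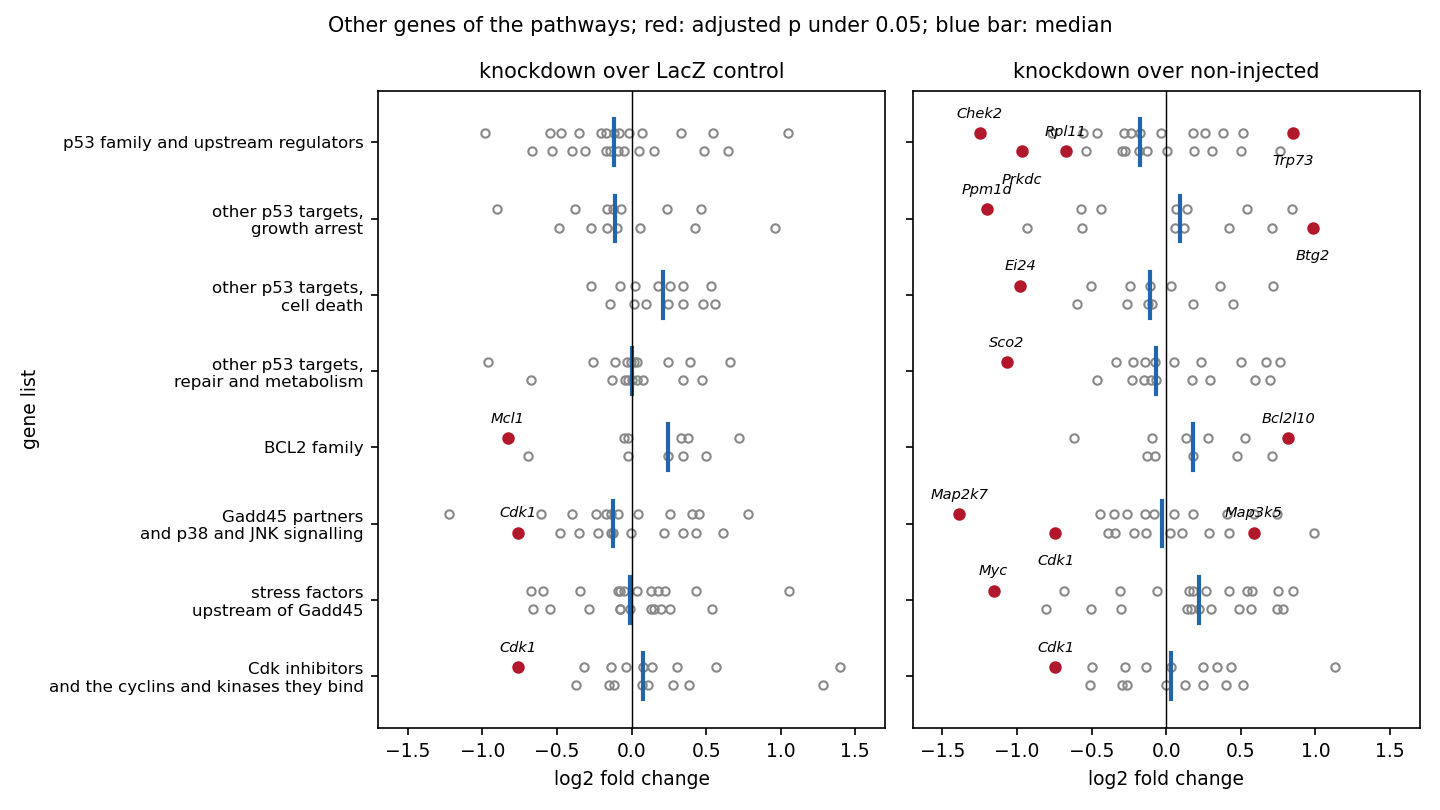
Log2 fold change (horizontal axis) of each gene with an adjusted p in 8 lists (vertical axis), for knockdown over LacZ control (left) and over non-injected (right), from the deposited tables. Points are genes, red with a name where the adjusted p is under 0.05, and blue bars are list medians. On the left Mcl1 and Cdk1 are red, Cdk1 standing in 2 lists, and on the right those named above for knockdown over non-injected are.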

How the data were processed

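Processed tables were analysed, not reads. The submitters' processing notes name the build GRCm38.p5, the aligner STAR 2.5.2b, SAMtools, the counter HTSeq 0.9.1 and the test DESeq2 1.18.1. Only the tables' own names mention RUVSeq factors and shrunken fold changes. An annotation release was not given in the sources used here. Each deposited gene table holds, per the file headers, 1 mean normalized count per gene (a signal), the log2 fold change and its error, the Wald statistic (a score) and the p-value before and after adjustment. Shrinkage pulls changes of weakly expressed genes towards 0. Mean counts agree across the 3 gene tables to within 4.87e-06, so 1 normalization underlies all of them. The deposited repeat tables were not used.

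No column holds a single library, so depth is unknown and no refit, batch check or outlier check could be made. Symbols came from GENCODE M21 (99.5% of identifiers). Intervals are the deposited fold change ± 1.96 standard errors. They carry any shrinkage of those values and need not match the p-values, which follow the Wald statistic. Exon lengths are unions over transcripts. The members and gene lists were chosen with earlier results of these data known. Genes of the wider lists were named where called, plus a few needed to read a member's value. Adjustment code was tested on simulated data. Python 3.11.15, pandas 2.3.3 and scipy 1.17.1 were used. Protein sequences were not used here.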

Additional observations from a re-analysis of the deposited data

How the results depend on the processing

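Each member was retested in every comparison with p-values adjusted over every gene with a p-value, over genes with a mean count of at least 10 or 100, and from the fold change over its standard error, as it stood and less the median of all genes. Of 144 such values 138 kept their direction and their side of the threshold. The exceptions were Ccng1 and Trp53inp1. Between knockdown and LacZ control 1 member was called; 2 were called with a mean count minimum of 10 or 100, with both tests on the fold change, and at a threshold of 0.1, Ccng1 being the added one (adjusted p = 0.0494, 0.0393, 0.0338 and 0.0335 in the first 4). Against non-injected embryos 2 members were called, and 1 with adjustment over every gene with a p-value, where Ccng1 left (0.0575). The count minimums and the adjustment over every gene change by construction how many genes enter the adjustment; for the tests on the fold change the cause was not tested. Trp53inp1 reversed from 0.036 to -0.016 against non-injected embryos once the median was subtracted. Gadd45a kept its calls under all 5 alternatives, with an adjusted p of 0.0119 to 0.0171 against LacZ control and 0.00569 to 0.0178 against non-injected. Over all genes, the tests on the fold change called 208 and 245 between knockdown and LacZ control, against 140 as deposited, and a threshold of 0.1 gave 462. In LacZ control over non-injected, 62 and 73 were called with the mean count minimums and 20 and 18 with the tests on the fold change, against 232. No paired analysis was possible because the deposited tables hold no values per library, and for the same reason no library could be left out. Bbc3 and Gadd45g have mean counts under 100 and so no value at that minimum.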

Other observations

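Cyclins, their kinases and their inhibitors other than Cdkn1a held 17 genes with an adjusted p. Between knockdown and LacZ control 1 was called in the authors' deposited table, Cdk1, described above, where 0.899% of all genes were. Against non-injected embryos 1 of 17 was called, again Cdk1, below the 15.2% of all genes. For LacZ control over non-injected 0 of 19 were called, where 0.792% of all genes were. Cdkn2b, an inhibitor of the cyclin D kinases, stood at 1.28 ± 0.39 and Ccnd2, a cyclin D, at 1.40 ± 0.39 (log2) in the authors' deposited table, with adjusted p = 0.0579 and 0.0877, both from mean counts under 30. Against non-injected embryos Cdkn2b stood at 0.25 ± 0.39 and Ccnd2 at 1.13 ± 0.39 in the authors' deposited table, with adjusted p = 0.787 and 0.138. In LacZ control over non-injected, Cdkn2b stood at -1.03 ± 0.40 in the authors' deposited table (unadjusted p = 0.00706, adjusted p = 0.306). The LacZ control thus had the lowest value of the 3 groups, but no pair of groups was separated at an adjusted p under 0.05.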
